A study of Mus musculus with 13 samples.

Results

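Cytochrome P450 genes of families 1 to 4 were followed across liver tumours of mir-122 knockout mice and livers of control mice. A member was any gene whose symbol begins with Cyp, a family number of 1 to 4, a subfamily letter and a gene number, and that had at least 1 probe set naming no other gene. This rule gave 56 of the 18193 genes on the array, in 19 subfamilies, each represented by its probe set with the highest mean over the 13 arrays. The largest subfamilies were Cyp2c with 11 members, Cyp2d with 8, Cyp4f with 7 and Cyp2j and Cyp3a with 5 each. The rule did not use any difference between groups.

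The 13 samples were 3 tumours from 11-month knockout mice, 5 tumours from 14-month knockout mice, 2 livers of 11-month wild type mice and 3 livers of 14-month wild type mice, all on a B6/129 background. mir-122 is a microRNA abundant in hepatocytes. The tumours carry the knockout and the controls do not, and non-tumour liver of knockout mice was not analysed here, so the effects of genotype and of tumour cannot be told apart. The labels give neither the sex of the mice nor whether the tumours came from separate animals, so the p-values measure the spread between these samples. Tumours and controls are numbered within each age in the order of the samples.

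P450 enzymes are haem proteins of the endoplasmic reticulum that add 1 atom of molecular oxygen to a substrate, with electrons passed on by P450 oxidoreductase. Families 1 to 3 oxidise drugs, toxins and steroids, and family 4 mainly hydroxylates fatty acids at the end of the chain, while several members of family 2 act on arachidonic acid, vitamin D or bile acids. Most are made by hepatocytes, many of them in the cells around the central vein, and their transcription depends on nuclear receptors that sense foreign compounds and on liver-enriched transcription factors. In mice several are also set by the sex-specific pattern of growth hormone secretion.

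All values are log2 levels from robust multi-array analysis (RMA), so a difference of 1 is a 2-fold change, and levels of different genes are not set against each other. On a principal component plot of all probe sets, 3 tumours stood apart from the other 5: tumours 1 and 2 of 11 months and tumour 4 of 14 months, at -2.7, -17.8 and 1.5 on the first component. The other 5 tumours lay between 67.7 and 92.1 and the controls between -79.3 and -64.5. Control 1 of 11 months and control 3 of 14 months correlated at 0.9959, against at most 0.9919 for any other pair of controls, although their labels give different ages. The mean level of 8 hepatocyte markers, among them Alb and Ttr, was 13.46, 13.47 and 13.20 in the 3 tumours that stood apart, between 12.77 and 12.99 in the other 5 and between 13.32 and 13.43 in the controls. In whole tissue, fewer cells of a type and less RNA per cell cannot be told apart.

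More members fell than rose in the tumours. With the ages weighted equally, 12 members (21.4%) fell and 2 (3.57%) rose at an adjusted p under 0.05, the threshold used throughout, while 9.81% of all 18193 genes fell and 10.3% rose (20.1% in either direction). The test was limma's moderated test over all 13 arrays with Benjamini-Hochberg adjustment over all genes. Cyp2c50, Cyp2c54, Cyp2c37, Cyp2c23, Cyp2d13, Cyp2u1, Cyp2c70, Cyp4f14, Cyp2c68, Cyp2r1, Cyp2d40 and Cyp4f13 fell, and Cyp4f16 and Cyp4f18 rose. The median log2 fold change of the 56 members was -0.59, against -0.05 for all genes, and 44 members had a negative one. The calls lay mostly among members above the median gene level of 6.2, of which 11 of 36 fell and 1 rose, against 1076 falls and 1439 rises among the 9096 genes above that level.

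The number of falls depended on which arrays were used. Without tumour 4 of 14 months 19 members fell, where 24.0% of all genes passed in either direction. Without all 3 tumours that stood apart more members fell. These 3 were picked from the same data and lay nearest the controls on the first component. More falls without them therefore follow from the choice and are not a separate result. That fit also leaves 1 tumour at 11 months. Without the pair of closely matching controls 5 fell, where 7.52% of all genes passed in either direction. With any other single array left out the number of falls was at least 8, where at least 9.97% of all genes passed in either direction. All tumours lay below all controls for 10 of 56 members, against 923 of all 18193 genes (5.07%). They lay above all controls for 1 of 56 members, Cyp4f16, against 1132 of all 18193 genes (6.22%).

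**Figure D1:**
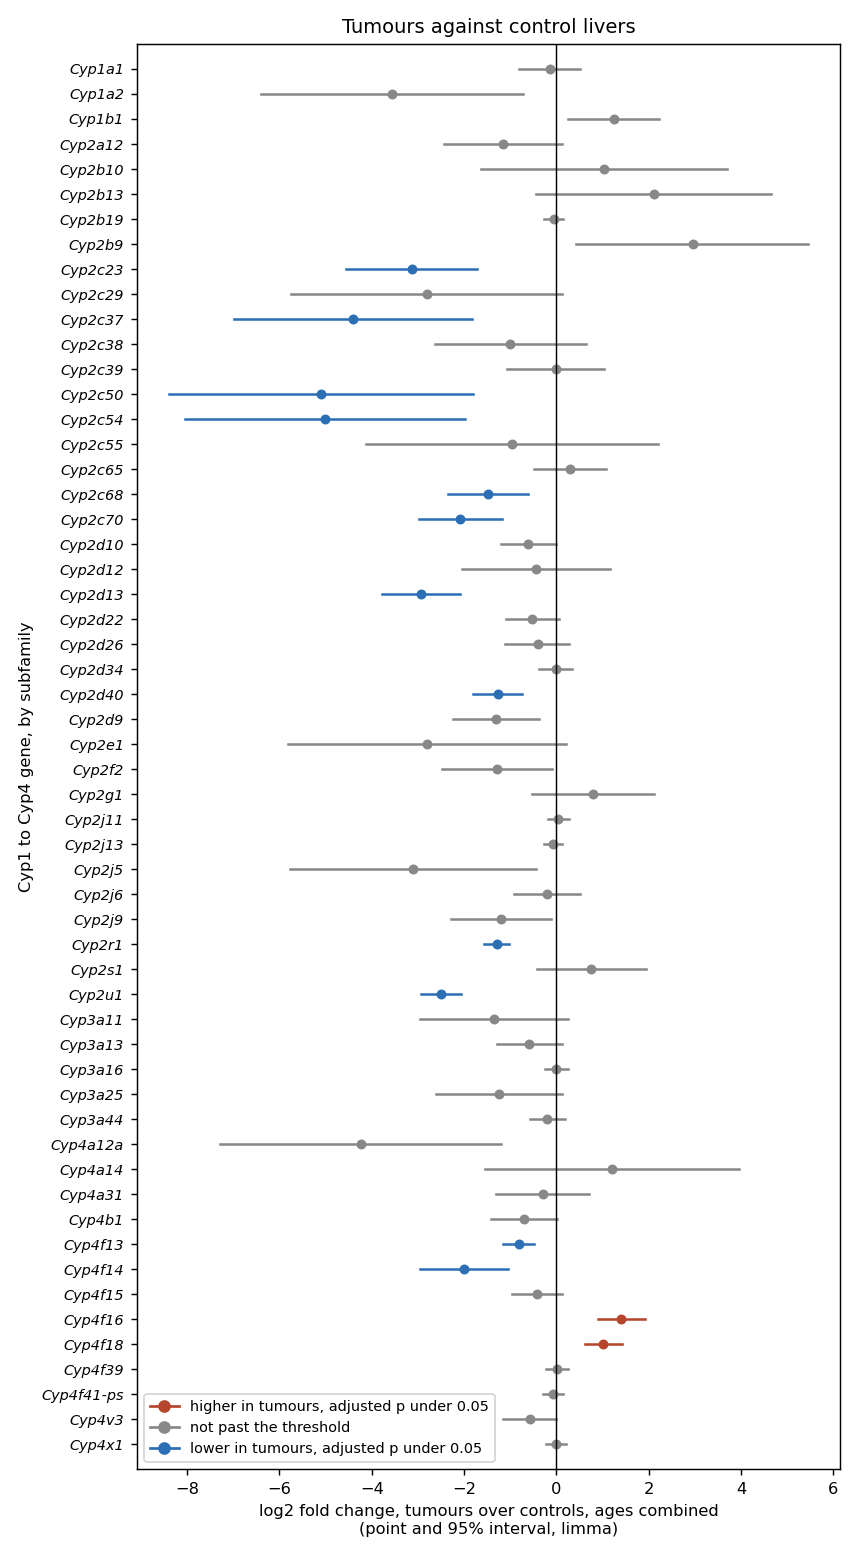
Log2 fold change of each of the 56 genes, tumours over controls with the ages combined (horizontal axis), by subfamily (vertical axis). Points are estimates and lines 95% intervals from limma; 12 genes are marked as lower, 2 as higher and 42 as not past the adjusted p threshold. Intervals are wide for Cyp2c50, Cyp2c55, Cyp4a12a and Cyp2c54 and narrower for Cyp2r1 and Cyp2u1.

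Cyp2u1 and Cyp2r1 gave the smallest adjusted p values of the set. Cyp2u1, a hydroxylase of long-chain fatty acids, measured 5.74, 5.90 and 5.06 in the 11-month tumours and 5.71, 5.45, 4.97, 5.30 and 5.01 in the 14-month tumours, against 7.66 and 8.44 in the 11-month controls and 7.88, 7.97 and 7.55 in the 14-month controls. Every tumour lay below every control at both ages. It fell by 2.50 on the log2 scale (SE 0.20, adjusted p = 4.54e-05, limma), with averages of 5.39 ± 0.36 in tumours (SD, n = 8) and 7.90 ± 0.35 in controls (SD, n = 5). A second Cyp2u1 probe set differed by -1.02 (adjusted p = 0.00143, limma, over all probe sets).

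Cyp2r1 is a vitamin D 25-hydroxylase, which makes the circulating form of vitamin D in the liver. Its levels were 6.18, 6.45 and 6.37 in the 11-month tumours and 7.03, 6.67, 6.26, 6.84 and 6.54 in the 14-month tumours, against 7.75 and 7.95 in the 11-month controls and 7.72, 7.69 and 7.80 in the 14-month controls. The groups did not overlap, and the controls spanned less than the tumours. Cyp2r1 fell by 1.29 (SE 0.12, adjusted p = 0.000139, limma). For both genes the 3 tumours that stood apart also lay below every control.

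The Cyp2c subfamily held 6 of the 12 falls. Its enzymes oxidise drugs and, in the mouse, convert arachidonic and linoleic acids to epoxides, and all 11 members lie on chromosome 19. Their median log2 fold change was -2.08. All 6 Cyp2c calls were lost without both closely matching controls, with adjusted p between 0.0585 and 0.154 (limma). Cyp2c37, Cyp2c50 and Cyp2c54, close relatives that act as epoxygenases, had the largest falls of the set and varied widely among tumours. The 250 bases before the transcription start of Cyp2c37 (chr19:39992174-39992423, plus strand), Cyp2c50 (chr19:40089429-40089678, plus strand) and Cyp2c70 (chr19:40187287-40187536, minus strand) are shown because these genes fell, and because Cyp2c37 and Cyp2c50 were alike in pattern and in sequence. They are from RefSeq, build GRCm38.p6, 5′ to 3′ on the gene's strand. Capitals mark CAAAGT, a half-site bound by HNF4, AGGTCA, a half-site of many nuclear receptors, and TATAAA, each as spelt or as its reverse complement.
Cyp2c37: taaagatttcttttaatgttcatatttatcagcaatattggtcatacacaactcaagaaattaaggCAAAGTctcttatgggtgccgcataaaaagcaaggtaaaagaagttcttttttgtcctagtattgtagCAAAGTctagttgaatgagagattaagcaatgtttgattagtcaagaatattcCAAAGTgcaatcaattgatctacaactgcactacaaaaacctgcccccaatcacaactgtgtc
Cyp2c50: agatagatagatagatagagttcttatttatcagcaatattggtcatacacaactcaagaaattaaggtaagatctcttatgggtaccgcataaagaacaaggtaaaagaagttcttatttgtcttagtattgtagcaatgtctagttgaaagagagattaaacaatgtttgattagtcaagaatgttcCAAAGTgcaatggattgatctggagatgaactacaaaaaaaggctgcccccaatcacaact
Cyp2c70: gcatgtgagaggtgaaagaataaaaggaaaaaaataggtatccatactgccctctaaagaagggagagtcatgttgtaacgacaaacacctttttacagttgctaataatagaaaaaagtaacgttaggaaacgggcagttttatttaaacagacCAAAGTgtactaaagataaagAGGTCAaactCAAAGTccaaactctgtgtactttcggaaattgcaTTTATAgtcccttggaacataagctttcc

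The promoters of Cyp2c37 and Cyp2c50 were identical at 215 of 255 aligned positions (84.3%), while each other Cyp2c promoter with an entry was at most 60.3% identical to either of them. Cyp2c37 holds CAAAGT 184, 116 and 63 bases before the start, and Cyp2c50 holds it once, 61 bases before. Cyp2c70 holds it 95 and 64 bases before. Promoters were found for 43 of the 56 members, with 49 start sites, and CAAAGT stood in 19 of these (38.8%) against 12.6% of all 32851 promoters of that length. AGGTCA stood in 24.5% against 14.0%, TATAAA in 34.7% against 12.4%, GTTAAT, a half-site of HNF1, in 6.12% against 6.43%, and TTATGTAA, a site of the D-box factors, in 0 of 49 against 0.819%. Both strands were searched. Of the 11 promoters of 8 members that fell, 4 held CAAAGT. A match describes the letters of the window and is not evidence of binding.

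Cyp2c50 measured 8.14, 12.88 and 4.15 in the 11-month tumours and 4.59, 7.90, 4.43, 11.34 and 9.48 in the 14-month tumours, against 13.02 and 13.13 in the 11-month controls and 12.92, 13.06 and 13.22 in the 14-month controls. Tumour 2 of 11 months reached almost the level of the controls, and the tumours spanned 8.74 log2 units, the widest range of any member. Cyp2c50 fell by 5.10 (SE 1.51, adjusted p = 0.0353, limma), a 34.3-fold difference of means. This call was lost, with adjusted p between 0.0516 and 0.104, when any 1 control was left out, or tumour 1 or 3 of 11 months, or tumour 1 or 2 of 14 months.

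Cyp2c54 followed a like order, with 8.62, 12.23 and 3.70 in the 11-month tumours and 3.66, 6.47, 4.03, 9.62 and 8.18 in the 14-month tumours, against 12.32 and 12.49 in the 11-month controls and 11.96, 12.23 and 12.40 in the 14-month controls. Tumour 2 of 11 months lay within the range of the controls and the other 7 below it. Cyp2c54 fell by 5.01 (SE 1.38, adjusted p = 0.027, limma), and the call was lost without any 1 of the 5 controls, at adjusted p between 0.0527 and 0.0881.

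Cyp2c37 measured 8.44, 10.92 and 3.65 in the 11-month tumours and 6.91, 7.01, 3.68, 9.15 and 8.28 in the 14-month tumours, against 11.32 and 12.39 in the 11-month controls and 11.13, 12.25 and 11.54 in the 14-month controls. All 8 tumours lay below all controls, tumour 2 of 11 months by the least. It fell by 4.41 (SE 1.18, adjusted p = 0.0235, limma). The adjusted p was 0.0649 without control 1 of 11 months, 0.0917 without control 2 of 11 months and 0.0541 without control 2 of 14 months. In all 3 genes tumour 3 of 11 months and tumour 3 of 14 months were at or near the low end.

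Cyp2c23, an arachidonic acid epoxygenase, measured 8.75, 11.54 and 7.04 in the 11-month tumours and 7.82, 7.79, 7.31, 9.70 and 8.68 in the 14-month tumours, against 11.75 and 11.98 in the 11-month controls and 11.79, 11.91 and 11.63 in the 14-month controls. No tumour reached the lowest control. It fell by 3.13 (SE 0.65, adjusted p = 0.00768, limma), and its probe set is of a type designed to match more than 1 transcript. Without both closely matching controls the adjusted p was 0.0585.

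Cyp2c70 hydroxylates chenodeoxycholic acid in mice on the way to the muricholic acids. It ranged between 9.59 and 12.86 in tumours, with a median of 11.01, against 12.88 to 13.42 in controls, and all tumours lay below all controls. It fell by 2.08 (SE 0.41, adjusted p = 0.00618, limma; 0.0616 without both closely matching controls). Cyp2c68 belongs to a branch of the subfamily that is higher in female mouse liver. It ranged between 8.54 and 11.17 in tumours, with a median of 10.77, against 11.61 to 12.26 in controls. It fell by 1.48 (SE 0.40, adjusted p = 0.0241, limma), without overlap between the groups. The adjusted p was 0.0548 without tumour 3 of 11 months, 0.0967 without control 1 of 11 months, 0.0635 without control 2 of 11 months and 0.055 without control 1 of 14 months.

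The other 5 Cyp2c members did not pass. Cyp2c29, the abundant drug-inducible form of mouse liver, measured 13.04, 13 and 6.45 in the 11-month tumours and 10.33, 10.62, 6.15, 13.74 and 11.53 in the 14-month tumours, against 13.28 to 13.71 in controls. Its difference was -2.81 (95% interval -5.75 to 0.13, adjusted p = 0.153, limma), with 7 tumours below all controls and tumour 4 of 14 months above them. Cyp2c55, inducible by drugs, split the tumours further: tumour 4 of 14 months measured 13.11 and tumour 1 of 11 months 10.66, above all controls at 7.27 to 9.27, while 5 tumours lay below all controls. The difference was -0.96 (95% interval -4.12 to 2.20, adjusted p = 0.655, limma). Cyp2c38, Cyp2c39 and Cyp2c65 differed by -1.0, -0.01 and 0.29.

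**Figure D2:**
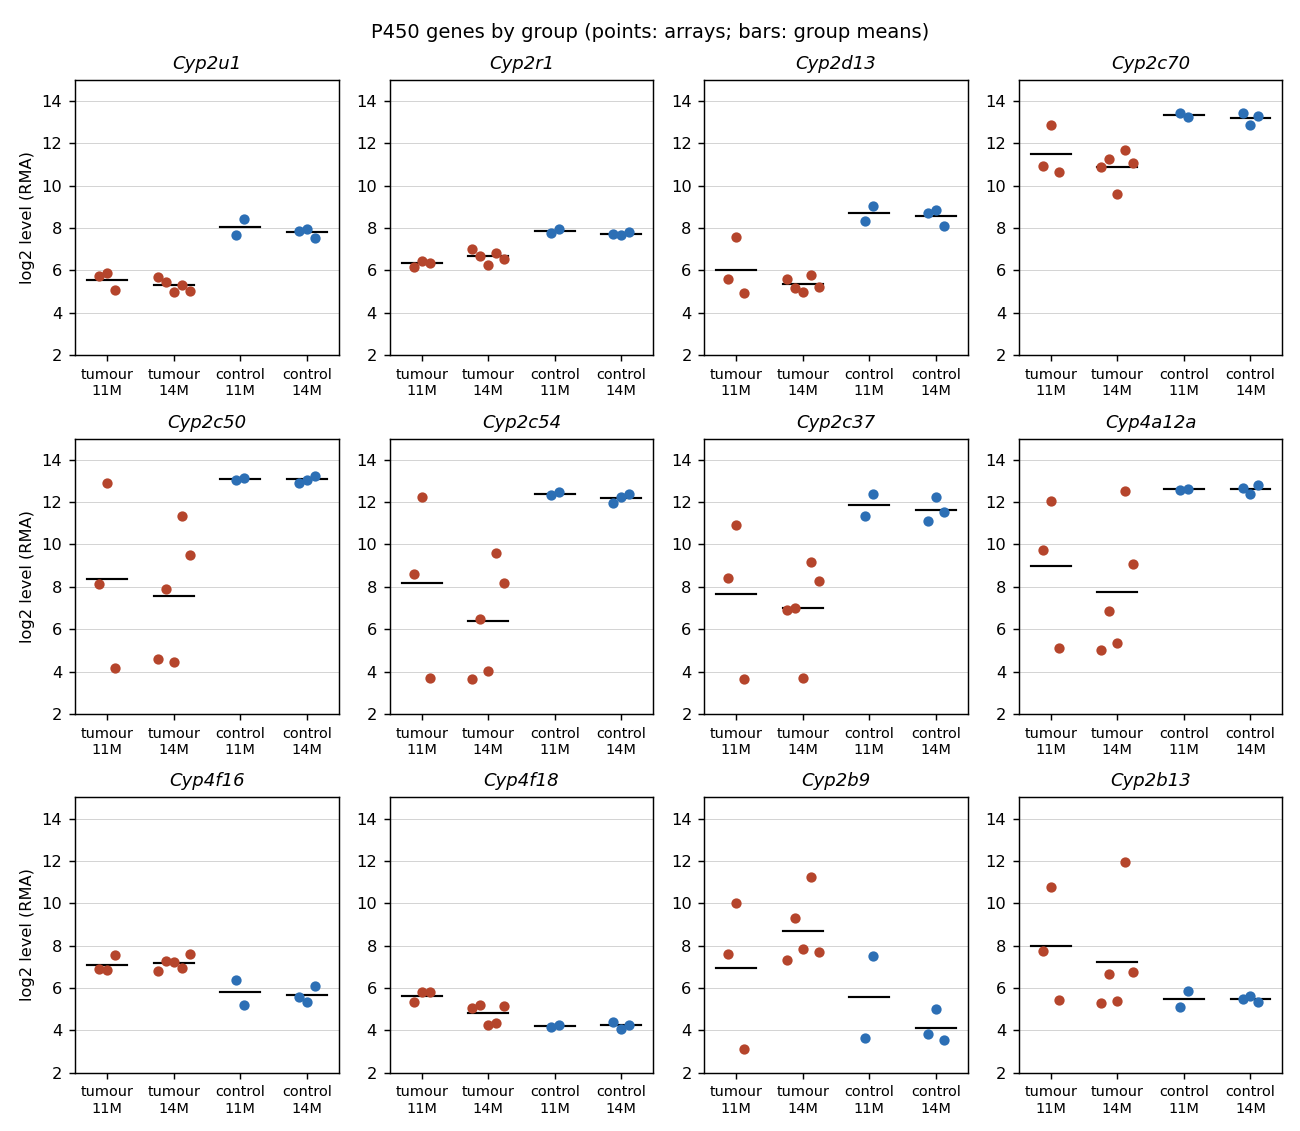
Log2 level (vertical axis) of 12 P450 genes on each array, by tumour and control group at each age (horizontal axis). Points are arrays and bars group means. Tumours lie below all controls for Cyp2u1, Cyp2r1, Cyp2d13 and Cyp2c70, above them for Cyp4f16, and on both sides of them for Cyp2b9, while Cyp2c50 spans 8.74 log2 units among tumours.

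In the Cyp2d subfamily, relatives of the human enzyme that metabolises many drugs, 2 of 8 members fell. Cyp2d13, which RefSeq lists as a transcribed pseudogene (as it does Cyp4f41-ps), measured 5.61, 7.58 and 4.92 in the 11-month tumours and 5.60, 5.16, 4.97, 5.78 and 5.23 in the 14-month tumours, against 8.32 and 9.06 in the 11-month controls and 8.73, 8.87 and 8.10 in the 14-month controls. The groups did not overlap. It fell by 2.93 (SE 0.39, adjusted p = 0.000812, limma), and a second probe set differed by -4.36 (adjusted p = 0.00378, limma, over all probe sets). Cyp2d40 ranged between 3.48 and 4.80 in tumours, with a median of 3.84, against 4.64 to 5.63 in controls. It fell by 1.27 (SE 0.24, adjusted p = 0.00528, limma), and 7 tumours lay below all controls.

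Cyp2d9, a testosterone 16-alpha-hydroxylase that is higher in male mouse liver, ranged between 10.39 and 13.15 in tumours, with a median of 11.77, against 12.93 to 13.40 in controls. Its difference of -1.31 missed the threshold (95% interval -2.25 to -0.37, adjusted p = 0.0519, limma), with 6 tumours below all controls. Cyp2d26, the Cyp2d member with the highest mean, measured 11.73 to 13.41 in tumours against 12.89 to 13.21 in controls, a difference of -0.41 (95% interval -1.11 to 0.28, adjusted p = 0.364, limma). The tumours lay on both sides of the controls. The differences of Cyp2d10, Cyp2d12, Cyp2d22 and Cyp2d34 lay between -0.61 and -0.01.

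The Cyp4f subfamily, which hydroxylates leukotrienes and long-chain fatty acids, was the only subfamily with calls in both directions: 2 of 7 members rose and 2 fell. Cyp4f16 measured 6.92, 6.85 and 7.55 in the 11-month tumours and 6.80, 7.26, 7.21, 6.94 and 7.60 in the 14-month tumours, against 6.38 and 5.20 in the 11-month controls and 5.59, 5.35 and 6.09 in the 14-month controls. All tumours lay above all controls. It rose by 1.40 (SE 0.23, adjusted p = 0.00261, limma), a second Cyp4f16 probe set differed by 1.02 (adjusted p = 0.00217), and a probe set shared with Cyp4f37 differed by 2.19 (adjusted p = 0.0032), both adjusted over all probe sets.

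Cyp4f18, known in mouse as a leukotriene B4 hydroxylase of neutrophils, measured 5.34, 5.80 and 5.79 in the 11-month tumours and 5.05, 5.20, 4.27, 4.37 and 5.14 in the 14-month tumours, against 4.15 and 4.24 in the 11-month controls and 4.40, 4.08 and 4.23 in the 14-month controls. Tumours 3 and 4 of 14 months lay within the range of the controls and the other 6 above it. It rose by 1.01 (SE 0.18, adjusted p = 0.00389, limma), but a second Cyp4f18 probe set averaged 3.89 in tumours and 4.07 in controls, a difference of -0.22 (adjusted p = 0.173). Neutrophil markers were also higher in tumours: 3 of 4 rose, S100a9 by 2.72 (adjusted p = 0.00101, limma), and the mean of the 4 was 6.46 to 8.39 in tumours against 5.03 to 6.07 in controls. Their part in the Cyp4f18 result was not tested.

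Cyp4f14, a mouse leukotriene B4 omega-hydroxylase, measured 7.49, 10.67 and 8.76 in the 11-month tumours and 9.04, 9.99, 9.69, 8.80 and 9.40 in the 14-month tumours, against 11.32 and 11.17 in the 11-month controls and 11.30, 10.86 and 11.19 in the 14-month controls. Tumour 1 of 11 months, which stood near the controls for several other members, was the lowest here. Cyp4f14 fell by 2.0 (SE 0.43, adjusted p = 0.00942, limma; 0.0777 without both closely matching controls). Cyp4f13 ranged between 7.94 and 8.89 in tumours, with a median of 8.40, against 9.04 to 9.41 in controls. It fell by 0.82 (SE 0.15, adjusted p = 0.0048, limma), with no overlap. Cyp4f15, Cyp4f39 and Cyp4f41-ps differed by -0.43, 0.01 and -0.08 and did not pass.

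Cyp1a2, Cyp2e1 and Cyp3a11, enzymes best known for oxidising foreign compounds, did not pass, although their tumour means were lower. Cyp1a2, which oxidises caffeine and arylamines, measured 7.84, 13.13 and 5.30 in the 11-month tumours and 6.22, 8.74, 7.74, 12.70 and 8.93 in the 14-month tumours, against 12.66 and 12.50 in the 11-month controls and 11.65, 12.34 and 12.56 in the 14-month controls. Tumour 2 of 11 months and tumour 4 of 14 months exceeded every control and the other 6 lay below them all. The difference was -3.57 (95% interval -6.41 to -0.73, adjusted p = 0.0716, limma).

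Cyp2e1, which oxidises ethanol and paracetamol, had an equally uneven pattern, with 13.40, 14.10 and 6.91 in the 11-month tumours and 8.79, 12.45, 7.50, 13.89 and 12.76 in the 14-month tumours, against 13.98 and 14.17 in the 11-month controls and 14.07, 14.17 and 14.03 in the 14-month controls. Tumour 2 of 11 months lay within the range of the controls and 7 lay below it. The difference was -2.81 (95% interval -5.81 to 0.20, adjusted p = 0.162, limma). The controls lie near the array maximum of 14.58 to 14.84, where differences can be compressed.

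Cyp3a11, the main drug-metabolising Cyp3a of mouse liver, measured 14.21, 14.11 and 10.31 in the 11-month tumours and 12.79, 12.04, 10.57, 14.39 and 12.69 in the 14-month tumours, against 13.91 to 14.20 in controls. Tumours 3 at 11 months and 1, 2, 3 and 5 at 14 months lay below all controls. The difference was -1.35 (95% interval -2.95 to 0.26, adjusted p = 0.205, limma). None of the 5 Cyp3a members passed: Cyp3a13 and Cyp3a25 differed by -0.59 and -1.25, Cyp3a44 by -0.20, and Cyp3a16 measured 2.23 to 2.83 in tumours against 2.34 to 2.69 in controls.

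Cyp2a12, a steroid hydroxylase, ranged between 9.67 and 13.20 in tumours, with a median of 11.19, against 12.56 to 12.90 in controls, a difference of -1.16 (95% interval -2.44 to 0.12, adjusted p = 0.172, limma). The tumours lay on both sides of the controls. Cyp2f2, which oxidises naphthalene and in liver marks periportal cells, ranged between 9.81 and 13.56 in tumours, with a median of 12.30, against 13.38 to 13.74 in controls. It differed by -1.29 (95% interval -2.47 to -0.10, adjusted p = 0.11, limma), and 6 tumours lay below all controls. Cyp1a1, induced through the aryl hydrocarbon receptor, measured 4.22 to 6.40 in tumours against 4.45 to 5.25 in controls, a difference of -0.15.

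Cyp1b1, a P450 of stromal and other extrahepatic cells, ranged between 4.87 and 7.31 in tumours, with a median of 5.88, against 4.23 to 5.39 in controls. Its difference of 1.24 missed the threshold (95% interval 0.25 to 2.23, adjusted p = 0.072, limma), and 1 of 2 further probe sets had the opposite sign at -0.20. Of 9 stellate cell or fibroblast markers 4 rose and 1, Lrat, fell, and their mean was 7.71 to 9.48 in tumours against 7.47 to 8.19 in controls. Col1a1 rose by 3.14 (adjusted p = 0.0167, limma). Their part in the Cyp1b1 values was not tested.

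The Cyp2b subfamily was the only one with several members and a median above 0, at 1.56, and none of its 4 members passed. Cyp2b10 is the classical target of the constitutive androstane receptor, and Cyp2b9 and Cyp2b13 are higher in female than in male mouse liver. The 250 bases before the start of Cyp2b9 (chr7:26173159-26173408, plus strand) and Cyp2b13 (chr7:26061245-26061494, plus strand; RefSeq, GRCm38.p6) are shown because both genes were highest in the same pair of tumours, 2 of 11 months and 4 of 14 months. Capitals mark CAAAGT and AGGTCA as above.
Cyp2b9: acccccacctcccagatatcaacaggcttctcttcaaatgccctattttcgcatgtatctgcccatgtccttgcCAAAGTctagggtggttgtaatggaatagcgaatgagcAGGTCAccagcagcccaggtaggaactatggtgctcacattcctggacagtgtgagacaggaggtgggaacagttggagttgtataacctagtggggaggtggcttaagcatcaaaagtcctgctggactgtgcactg
Cyp2b13: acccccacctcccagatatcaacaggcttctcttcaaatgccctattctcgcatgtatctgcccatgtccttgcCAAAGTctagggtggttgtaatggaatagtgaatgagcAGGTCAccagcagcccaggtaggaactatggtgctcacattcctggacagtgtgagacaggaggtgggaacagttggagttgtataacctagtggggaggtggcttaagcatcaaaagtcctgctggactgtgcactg

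These promoters were identical at 248 of 250 positions (99.2%), and each holds CAAAGT 176 bases and AGGTCA 138 bases before the start. The promoter of Cyp2b10 (chr7:25897408-25897657, plus strand) was 71.0% identical to either and held none of the searched motifs.

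Cyp2b9 measured 7.60, 10.03 and 3.14 in the 11-month tumours and 7.33, 9.31, 7.84, 11.22 and 7.68 in the 14-month tumours, against 3.63 and 7.51 in the 11-month controls and 3.85, 5.0 and 3.55 in the 14-month controls. In all, 6 tumours lay above all controls, tumour 3 of 11 months lay below them, and control 2 of 11 months was higher than the other controls. The difference was 2.95 (95% interval 0.43 to 5.46, adjusted p = 0.0891, limma).

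Cyp2b13 measured 7.74, 10.78 and 5.44 in the 11-month tumours and 5.28, 6.67, 5.39, 11.94 and 6.77 in the 14-month tumours, against 5.12 to 5.88 in controls. The 3 highest values were those of the 3 tumours that stood apart on the principal components. It differed by 2.11 (95% interval -0.44 to 4.65, adjusted p = 0.212, limma). Cyp2b10 measured 11.03, 7.06 and 5.04 in the 11-month tumours and 11.47, 10.16, 8.52, 12.16 and 6.28 in the 14-month tumours, against 6.99 and 9.49 in the 11-month controls and 5.66, 8.69 and 7.08 in the 14-month controls. The controls varied too, 4 tumours lay above all of them and 1 below. The difference was 1.02 (95% interval -1.64 to 3.69, adjusted p = 0.565, limma), and Cyp2b19 measured 2.50 to 2.76 in tumours against 2.37 to 2.94 in controls.

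In the Cyp4a subfamily, whose enzymes hydroxylate fatty acids and several of which are induced through the receptor PPAR alpha, no member passed. Cyp4a12a, a producer of 20-HETE that is higher in male mouse liver, measured 9.74, 12.07 and 5.10 in the 11-month tumours and 5.02, 6.87, 5.34, 12.50 and 9.09 in the 14-month tumours, against 12.56 and 12.64 in the 11-month controls and 12.66, 12.36 and 12.82 in the 14-month controls. Tumour 4 of 14 months lay within the range of the controls and 7 below it. The difference was -4.24 (95% interval -7.29 to -1.20, adjusted p = 0.0519, limma).

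Cyp4a14, higher in female mouse liver, measured 12.01, 8.08 and 4.40 in the 11-month tumours and 6.88, 9.10, 6.45, 12.28 and 9.0 in the 14-month tumours, against 6.86 and 6.87 in the 11-month controls and 7.41, 8.62 and 6.90 in the 14-month controls. Tumour 1 of 11 months and tumour 4 of 14 months were the highest arrays, and 2 tumours lay below all controls. The difference was 1.20 (95% interval -1.55 to 3.95, adjusted p = 0.511, limma). Cyp4a31 differed by -0.29. A probe set shared by Cyp4a10 and Cyp4a31 measured 12.97 in tumour 1 of 11 months and 12.12 in tumour 4 of 14 months, the same pair that was high for Cyp4a14.

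Sex-linked transcripts were looked at because of these sex-dependent genes, after their values had been seen. Xist, the X-inactivation transcript of female cells, measured 4.46 to 4.91 in tumours against 4.90 to 5.20 in controls. The Y-linked gene Eif2s3y measured 7.81 to 9.06 in tumours against 9.02 to 9.45 in controls, and Uty 6.31 to 7.40 in tumours against 6.64 to 7.13 in controls. The Y-linked Kdm5d measured 3.52 in tumour 3 of 11 months and at least 5.24 on every other array. No array was high for Xist and low for Eif2s3y, Uty and Kdm5d. Of 4 measured P450 genes known to be higher in male mouse liver, Cyp2u1 and Cyp7b1 fell and none rose, with a median log2 fold change of -2.13. Of 9 known to be higher in female liver, Cyp17a1 rose and Cyp2c68 fell, with a median of 1.02. The mean level of the male-higher list was 8.25 to 10.85 in tumours against 11.61 to 11.92 in controls, without overlap. That of the female-higher list was 5.73 to 9.23 in tumours against 5.95 to 6.7 in controls, with overlap. Of the measured genes, 3 of the 4 male-higher (Cyp2u1, Cyp2d9 and Cyp4a12a) and 8 of the 9 female-higher are members described above. These means therefore repeat their values and are not a separate result.

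Among the remaining members, Cyp2j5, an arachidonic acid epoxygenase, measured 11.51, 12.02 and 5.99 in the 11-month tumours and 5.53, 7.15, 7.76, 12.33 and 9.38 in the 14-month tumours, against 12.18 to 12.37 in controls. The 3 tumours nearest the controls were again tumours 1 and 2 of 11 months and tumour 4 of 14 months. The difference was -3.11 (95% interval -5.78 to -0.44, adjusted p = 0.0906, limma). Cyp2j9 differed by -1.20, and Cyp2j6, Cyp2j11 and Cyp2j13 by -0.20 to 0.04. Cyp4v3, a fatty acid hydroxylase, measured 10.22 to 11.91 in tumours against 11.55 to 12.11 in controls, a difference of -0.58 (adjusted p = 0.125, limma). Cyp4b1, which activates several protoxins, measured 6.48 to 8.04 in tumours against 7.67 to 8.32 in controls, a difference of -0.70 (adjusted p = 0.145, limma). Cyp2g1 and Cyp2s1 differed by 0.79 and 0.75 and Cyp4x1 by -0.01. In all, 12 members stayed at or below the median gene level on every array.

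**Figure D3:**
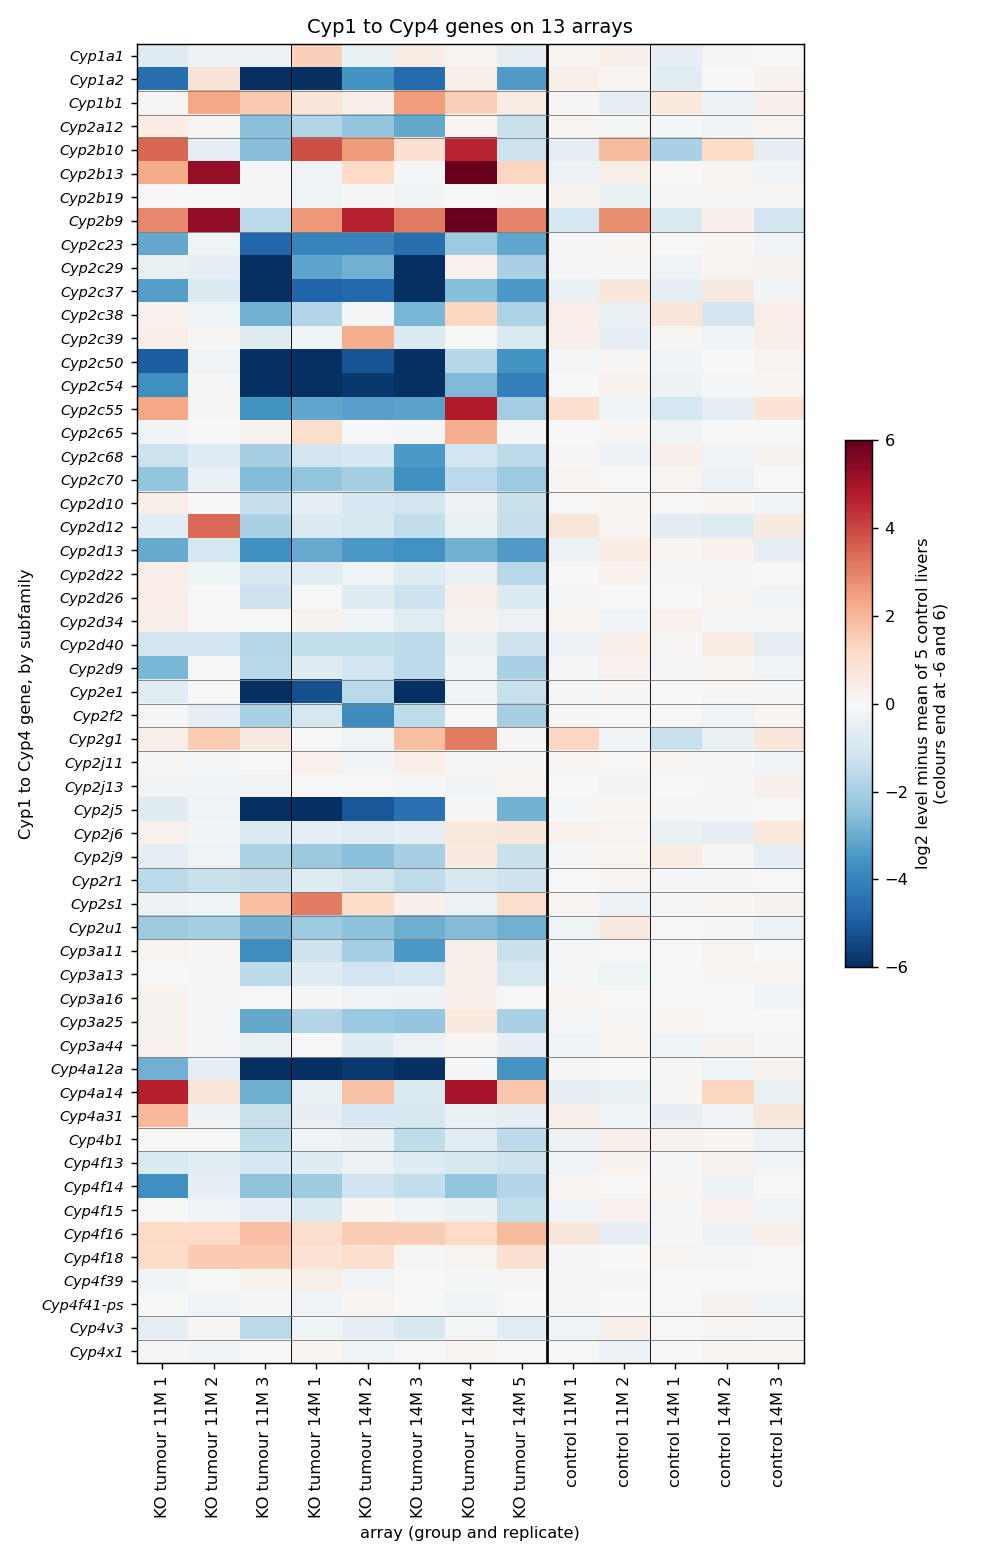
Log2 level of each of the 56 genes (vertical axis, by subfamily) on each of 13 arrays (horizontal axis, tumours left and controls right), minus the mean of the 5 controls. Colours end at -6 and 6 log2 units. Cyp2c50 and Cyp2c54 are dark blue in several tumours and near white in tumour 2 of 11 months, and Cyp2b9 and Cyp2b13 are dark red in tumour 2 of 11 months and tumour 4 of 14 months.

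Variation among tumours was itself a feature of the set. The SD among 8 tumours exceeded that among 5 controls for 51 of 56 members (91.1%), as it did for 73.3% of all genes, and the median ratio of the SDs was 2.96 for the members and 1.55 for all genes. For 17 members (30.4%) the tumours spanned at least 4 log2 units, as for 1.54% of all genes, while the controls did so for 0 members and 0.115% of all genes. For 25 members (44.6%) some tumours lay above all controls and others below them, as for 32.4% of all genes.

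Single tumours differed in how many members left the range of the controls. Tumour 3 of 11 months was below all controls for 41 of the 56 members (73.2%, against 32.3% of all genes), tumours 2, 3 and 5 of 14 months for 37, 38 and 37 (66.1%, 67.9% and 66.1%, against 35.3%, 31.4% and 36.4% of all genes), and tumour 1 of 14 months for 32 (57.1%, against 30.9%). Tumours 1 and 2 of 11 months and tumour 4 of 14 months were below all controls for 22, 18 and 18 members (39.3%, 32.1% and 32.1%, against 31.7%, 30.6% and 33.2% of all genes). These are the tumours in which the hepatocyte markers were also nearest to the controls, and the part of hepatocyte content in the P450 levels was not tested. Tumour 4 of 14 months was above all controls for 18 members (32.1%, against 26.5% of all genes), with Cyp2b9 6.51 above the control mean.

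**Figure D4:**
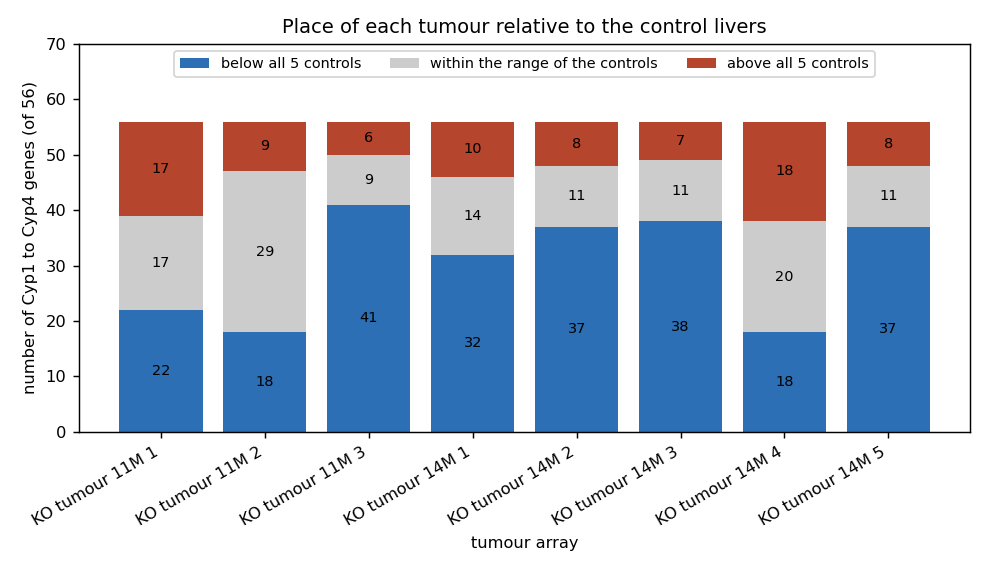
Number of the 56 P450 genes (vertical axis) in which each of the 8 tumours (horizontal axis) lay above all 5 controls (top), within their range (middle) or below all of them (bottom). Tumour 3 of 11 months was below all controls for 41 genes, tumour 2 of 11 months and tumour 4 of 14 months for 18 each.

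At each age alone fewer members passed. At 11 months, with 3 tumours and 2 controls, 2 members fell (0.61% of all genes did) and 1 rose (1.31% of all genes did, 1.92% in either direction): Cyp2u1 fell by 2.49 (adjusted p = 0.00399, limma), Cyp2r1 fell by 1.52 (adjusted p = 0.00477, limma) and Cyp4f18 rose by 1.45 (adjusted p = 0.0328, limma). The count of 3 became 8 without tumour 2 of 11 months, a fit in which 21.4% of all genes passed with the ages combined. Leaving out either control of 11 months leaves 1 control at that age, so the calls rest on very few arrays. At 14 months, with 5 tumours and 3 controls, 9 members fell (6.88% of all genes did) and 1 rose (8.37% of all genes did, 15.3% in either direction). Those that fell were Cyp2u1, Cyp2r1, Cyp2d13, Cyp2c70, Cyp2c23, Cyp4f13, Cyp2d40, Cyp2c68 and Cyp2c54, and Cyp4f16 rose by 1.49 (adjusted p = 0.00889, limma). Their number of 10 became 19 without tumour 4 of 14 months, 16 without tumour 3 of 11 months, and 4, 5 and 5 without control 1, 2 or 3 of 14 months. With the ages combined, 24.0%, 14.9%, 14.4%, 14.3% and 15.6% of all genes passed in these fits, in that order. Shares of all genes at a single age are not given for them, so the shifts cannot be read as particular to the members.

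The members' median log2 fold change was -0.75 at 14 months and -0.52 at 11 months, against -0.06 and -0.04 for all genes. No difference between the ages passed for any member in limma's test of the interaction (0.0% of all genes passed), and 1 member had an unadjusted p under 0.05. That member was Cyp4f18, with an estimate of 0.57 at 14 months and 1.45 at 11 months, a difference of -0.88 (95% interval -1.68 to -0.08, adjusted p = 0.999). Tumours of 14 and 11 months gave no call for any member (0.0055% of all genes passed, 1 member at an unadjusted p under 0.05), and neither did controls of 14 and 11 months (0.0% of all genes, 0 members at an unadjusted p under 0.05).

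Close relatives can share probes. Of the 56 members' probe sets, 49 carry the plain suffix, 3 are of the type matching several transcripts of 1 gene and 4 (Cyp2b10, Cyp2c23, Cyp2c65 and Cyp4v3) of the type matching several transcripts or genes. RefSeq lists 113 mouse genes that fit the symbol rule, and 57 of them have no probe set of their own here, so signal from an unlisted relative was not tested. A further 4 probe sets name a pair of P450 genes each and were kept apart. That of Cyp2a5 and Cyp2a4, which hydroxylate coumarin and testosterone, measured 13.36 to 14.54 in tumours against 10.49 to 13.63 in controls, and 6 tumours lay above all controls. It differed by 1.56 (adjusted p = 0.048, limma, over all probe sets). Those of Cyp4a31 with Cyp4a10 and of Cyp3a41b with Cyp3a41a differed by -0.64 and -0.34 (adjusted p = 0.744 and 0.801). For the 11 members with several probe sets, 11 of 13 further probe sets had the sign of the chosen one.

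P450 genes of the central vein zone were set beside other genes of that zone. Of 11 listed pericentral P450 genes, 9 had a probe set of their own. Of these 9, 3 fell (Cyp2c37, Cyp2c50 and Cyp2c54) and none rose, with a median log2 fold change of -2.81. Cyp2a5 and Cyp4a10 were listed but named only on shared probe sets. These differed by 1.56 and -0.64 (adjusted p = 0.048 and 0.744, limma, over all probe sets). Of 15 pericentral genes outside the P450 set 5 fell and none rose, with a median of -1.37: Rnf43, which restrains Wnt signalling, fell by 2.37 (adjusted p = 0.000356, limma) and Lgr5, an R-spondin receptor, fell by 1.37 (adjusted p = 0.0152, limma). Glul, the glutamine synthetase of the innermost pericentral cells, measured 8.35 to 11.91 in tumours against 11.52 to 11.89 in controls, a difference of -1.48 (adjusted p = 0.0503, limma). Of 13 periportal genes outside the set 2 fell and 1 rose, with a median of -0.10. Pigr fell by 4.43 (adjusted p = 0.0152, limma), Uroc1 fell by 0.51 (adjusted p = 0.0265) and Ctsc rose by 0.57 (adjusted p = 0.0163).

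Of 36 measured regulators of P450 genes 7 fell and 2 rose. Hlf, a circadian D-box factor, fell by 2.14 (adjusted p = 0.0422, limma), with 3.38 to 7.65 in tumours against 8.18 to 8.76 in controls. Bcl6, a repressor in the growth hormone pathway, fell by 1.50 (adjusted p = 0.00808, limma). The bile acid receptor Nr1h4, the growth hormone receptor Ghr, and Cebpa, Stat5b and Cux2 fell by 0.96, 0.96, 0.87, 0.53 and 0.33. Nfe2l2, the master factor of the oxidative stress response, rose by 1.38 (adjusted p = 0.00527, limma), and Tox rose by 1.35 (adjusted p = 0.0291, limma).

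The receptors that sense foreign compounds did not pass. Nr1i3, the constitutive androstane receptor, measured 9.14, 9.34 and 6.15 in the 11-month tumours and 7.90, 6.76, 6.76, 9.11 and 6.69 in the 14-month tumours, against 9.28 to 9.95 in controls, a difference of -1.77 (adjusted p = 0.0542, limma). The 3 highest tumours were the 3 that stood apart. Nr1i2, the pregnane X receptor, measured 7.43 to 9.46 in tumours against 7.43 to 7.76 in controls, a difference of 0.67 (adjusted p = 0.201, limma). Its 2 highest arrays were tumour 4 of 14 months and tumour 1 of 11 months, at 9.46 and 9.30. Ppara differed by -1.18 (adjusted p = 0.0678), Ahr by 0.43 (adjusted p = 0.528), Hnf4a by -0.12 (adjusted p = 0.547) and Dbp by -2.06 (adjusted p = 0.204), the last with 5.66 to 11.16 among controls. Alb measured 14.47 to 14.78 in tumours against 14.63 to 14.66 in controls, near the top of the scale.

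**Figure D5:**
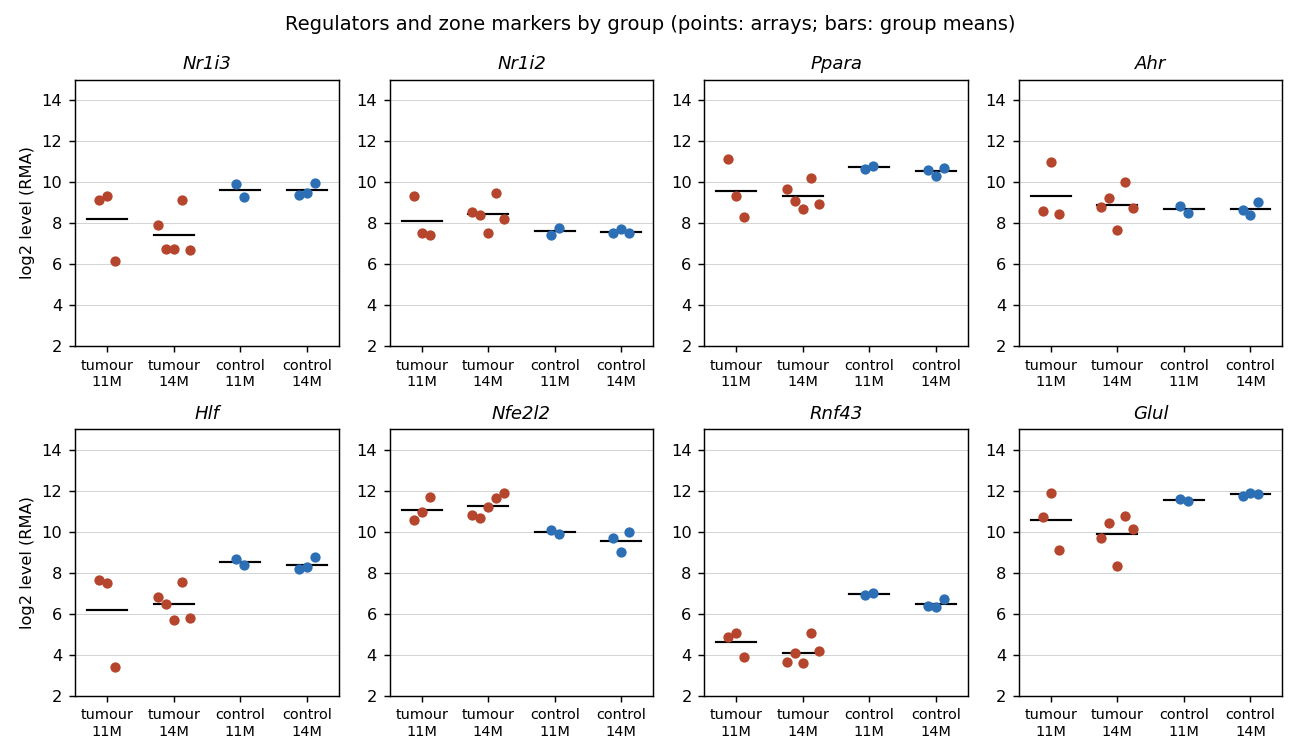
Log2 level (vertical axis) of 8 regulators and zone markers on each array, by tumour and control group at each age (horizontal axis). Points are arrays and bars group means. All tumours lie below all controls for Hlf and Rnf43 and above them for Nfe2l2, and the groups overlap for Nr1i3, Nr1i2, Ppara, Ahr and Glul.

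Target lists of these receptors were small, and 9.81% of all genes fell and 10.3% rose in the same test. Of 21 targets of the pregnane X and constitutive androstane receptors 2 fell, Cyp2c37 and Cyp2c54, and 1 rose, Meg3 by 2.15 (adjusted p = 0.0486, limma), with a median of -0.08. Of 8 targets of the aryl hydrocarbon receptor 1 rose, Nfe2l2, with a median of 0.11. Of 19 targets of PPAR alpha 1 rose, the fatty acid transporter Cd36 by 2.20 (adjusted p = 0.0181, limma), with a median of 0.07. The mean of the PPAR alpha list was 11.71 and 10.89 in tumour 1 of 11 months and tumour 4 of 14 months, 8.55 to 9.61 in the other tumours and 9.41 to 9.63 in controls.

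Of 17 measured genes listed as partners of P450 enzymes, only some of which supply electrons or haem, 2 rose and 1 fell. Hmox1, which breaks down haem, rose by 1.40 (adjusted p = 0.039, limma) and Tspo, a mitochondrial transporter protein, rose by 1.02 (adjusted p = 0.00868, limma), while Cyb5b, a cytochrome b5, fell by 1.15 (adjusted p = 0.00943, limma). The oxidoreductase gene Por was not analysed here. Of 19 P450 genes outside families 1 to 4, 4 fell and 1 rose. Cyp17a1, the steroid 17-alpha-hydroxylase, rose by 3.68 (adjusted p = 0.00613, limma), with 8.22 to 12.63 in tumours against 6.85 to 8.59 in controls. Cyp8b1, which makes cholic acid, fell by 2.53 (adjusted p = 0.0342, limma), Cyp51 of cholesterol synthesis fell by 2.07 (adjusted p = 0.0232, limma), and the bile acid enzymes Cyp7b1 and Cyp27a1 fell by 1.77 and 1.58.

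Markers of cell types give the setting for these levels. Of 8 hepatocyte markers 1 fell, Asgr1 by 1.12 (adjusted p = 0.0254, limma), and none rose. Of 8 macrophage markers 3 rose and of 8 endothelial markers 2 rose, with no falls past the threshold. The macrophage markers Clec4f and Cd5l differed by -2.16 and -1.28, and the endothelial marker Clec4g by -2.0, without passing. In the other lists 0 of 5 cholangiocyte, 0 of 8 lymphocyte and 0 of 2 erythroid markers passed. The array gives no true zero, so absence of a cell type cannot be read from these values.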

How the data were processed

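RNA of 8 tumours and 5 livers was hybridised to 13 one-colour Affymetrix mouse arrays. The authors deposited log2 values from RMA run in Partek software, per the submitters' processing notes. Not given in the sources used here are its version, its background settings and the genome build. RMA ties arrays to a common distribution (array medians 5.13 to 5.22), so a change shared by most genes would not be seen.

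Of 45101 probe sets, 64 were controls and 34945 named 1 gene in the platform annotation. They stood for 18193 genes, each by its highest probe set, with no filter on level and 0 values missing. All 56 members matched RefSeq by gene ID with the same symbol.

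The 4 groups were fitted together with limma 3.58.1 under R 4.3.3 (empirical Bayes moderation with 2.314 prior degrees of freedom). The combined contrast weighs both ages equally, so it can differ from the difference of printed means. Probe sets beyond the chosen ones were tested in a second fit over all probe sets. The fit was run on simulated data with the same spread in tumours and controls, which does not cover the unequal spread seen here. Promoters (250 bases upstream) were aligned globally with Biopython 1.88. Tables were made with pandas 2.3.3 and numpy 2.4.6 (Python 3.11.15), figures with matplotlib 3.10.9.

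The members and gene lists were chosen with earlier results of these data known. Members past the threshold, the member with the highest mean of each subfamily, fixed regulators and the largest changes of each list are named with values. Sex-linked genes were added later. Alternatives varied the probe set, normalisation, spread, filter, threshold and arrays. The number of arrays limits the precision. Groups and ages come from the labels.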

Additional observations from a re-analysis of the deposited data

Results flagged for a closer look

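In 168 sets, each 1 member in the 14-month tumours, all 8 tumours or all 5 controls, the highest or lowest array was compared with the others, and 14 had 1 array far from the rest. Chance alone would flag about 1 in 20 sets if they were independent and normally distributed. These sets overlap, as the 14-month tumours are among all 8 tumours, so the count of 14 cannot be set against that rate. Tumour 4 of 14 months was far above the other 14-month tumours for Cyp2b13 (11.94, others 5.28 to 6.77), Cyp2c55 (13.11, others 5.09 to 6.23), Cyp3a25 (13.70, others 10.79 to 11.36) and Cyp2d40 (4.80, others 3.64 to 3.95). For Cyp2d40 it also stood above all other tumours (3.48 to 4.09). Tumour 2 of 14 months was high for Cyp2c39 (6.97), against 3.90 to 4.76 in the other 14-month tumours and 3.90 to 5.09 in all other tumours. Tumour 3 of 14 months was low for Cyp2c68 (8.54), against 10.40 to 10.93 in the other 14-month tumours and 9.95 to 11.17 in all others.

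Tumour 2 of 11 months was high among all tumours for Cyp2d12 (9.53, others 4.18 to 5.69) and Cyp2d13 (7.58, others 4.92 to 5.78), and tumour 1 of 11 months for Cyp4a31 (8.21, others 4.94 to 5.95). Control 2 of 11 months was low among controls for Cyp2b19 (2.37, others 2.80 to 2.94) and Cyp4x1 (2.89, others 3.25 to 3.39), at levels near the bottom of the scale.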

How the results depend on the processing

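Of the 14 members past the threshold with the ages combined, 5 passed in each of 25 settings (Cyp2u1, Cyp2r1, Cyp2d13, Cyp4f13 and Cyp4f16), Cyp2d40 and Cyp4f18 passed in the 24 that tested them, 10 passed whichever single array was removed, and 0 changed sign in these settings. The second Cyp4f18 probe set had the opposite sign at -0.22. With 1 array left out, the number of falls was 8 to 19 (main value 12), of rises 2 to 3 (2), of calls at 11 months 0 to 8 (3) and at 14 months 4 to 19 (10). In these fits 9.97% to 24.0% of all genes passed in either direction with the ages combined. The interaction, tumours between ages and controls between ages gave 0 calls throughout. Without the 3 tumours that stood apart there were 33 falls, 27 calls at 11 months and 29 at 14 months. Without both closely matching controls these were 5, 1 and 5. With only arrays whose titles carry a number, 6 fell and 2 passed at 14 months, where 9.67% of all genes passed with the ages combined. With tumours 1 and 2 of 14 months averaged into 1, the same 14 members passed with the ages combined, as did 18.5% of all genes. Array weights gave 4 rises and 26 calls at 14 months, where 26.6% of all genes passed with the ages combined. Shares of all genes at single ages in these settings are not given here. An adjusted p under 0.01 left 4 at 14 months, and a fit of only the 11-month arrays left 0 calls at 11 months. Only genes above the median level left 1 rise, because Cyp4f18 lies below that level and was not tested there. The causes of the other changes were not tested. No paired analysis was possible because the labels give no numbers shared between groups. Low members near the bottom of the scale and those near its top can show compressed differences.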
